A study of Mus musculus with 8 samples.

Results

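Transcripts of the nuclear-encoded subunits of the mitochondrial respiratory chain and ATP synthase were followed in RNA of mouse uterine stromal cells. The members were chosen by symbol (names that begin Ndufa, Ndufb, Ndufc, Ndufs or Ndufv with a number, Sdha to Sdhd, Uqcr, Cox4 to Cox8, and Atp5), which gave 84 of the 23238 gene symbols counted. Complex I had 37 members, complex II 4, complex III 8, complex IV 18 and complex V 17. A symbol does not always place a protein in its complex: Ndufa4 is now counted with complex IV, Cox7a2l encodes a factor that joins complexes III and IV, and Atp5s and Atp5sl are not structural parts of ATP synthase. Of the 84 members, 79 had enough reads to be tested, and the other 5, Cox4i2, Cox6a2, Cox7b2, Cox8b and Cox8c, are low or absent isoforms of complex IV.

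The mice had been ovariectomized, so that the main source of their ovarian hormones was gone, and belonged to a strain given as C57BL/6-ICR. There were 4 groups of 2 libraries: Atg7-deleted stroma (Atg7f/f;Amhr2cre) after estradiol (E2), Atg7-deleted stroma after oil, control stroma (Atg7f/f) after E2 and control stroma after oil. Every mouse carried floxed alleles of Atg7, an enzyme that autophagy needs. Cre came from Amhr2, a gene of the mesenchyme of the female tract. No group carried Cre with Atg7 intact, so an effect of Cre and one of the deletion cannot be told apart. Age, E2 dose, time after injection and the way stroma was separated are not given in the labels. The labels do not tie libraries to animals, and the p-values therefore speak of the spread among these samples, which may be technical.

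The respiratory chain sits in the inner mitochondrial membrane. Complexes I and II pass electrons from NADH and succinate to ubiquinone, complex III passes them on to cytochrome c and complex IV to oxygen. Complexes I, III and IV pump protons, and complex V, ATP synthase, uses their return to make ATP. All subunits of complex II and most of the others are encoded in the nucleus, and the rest in mitochondrial DNA. In the uterus, estradiol drives growth of the tissue.

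Library totals ran from 5458390 to 6951080 counts. The kit reads the 3′ ends of transcripts. A level is given in CPM, a gene's counts over the scaled size of its library, and with this kit it does not grow with transcript length. Atg7 had 20 to 33 reads in every library and did not pass in any comparison, and 3′ reads do not show whether internal exons were lost. Markers of stroma were present: the 10 fibroblast markers summed to 7830 to 8460 CPM in deleted E2, 2270 to 2870 in deleted oil, 5740 to 8260 in control E2 and 1900 to 2300 in control oil. Markers of epithelium were present too. Their 10 genes summed to 1320 to 1770 CPM in deleted E2, 4680 to 11100 in deleted oil, 1230 to 2790 in control E2 and 5940 to 17800 in control oil, and none was at 0 in every library. The 8 smooth muscle markers summed to 6140 to 7070 CPM in deleted E2, 2920 to 3820 in deleted oil, 6340 to 6520 in control E2 and 1510 to 3360 in control oil. The summed fibroblast and smooth muscle markers thus stood higher with E2, like the respiratory genes below, and the summed epithelial markers lower. Of 10 fibroblast markers 6 rose in each genotype and 1 fell in control stroma, and of 8 smooth muscle markers 4 rose in deleted and 5 in control stroma and none fell. Of 10 epithelial markers 4 fell in deleted and 6 in control stroma and none rose. Among all tested genes, 13.1% rose and 11.2% fell in deleted stroma, and 15.8% rose and 14.0% fell in control stroma. The part of these cell types in the results was not tested. In RNA of many cells, fewer cells of a type and less RNA per cell cannot be told apart.

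After E2, transcripts of respiratory subunits stood at about 2 times their level in oil, in both genotypes and in all 5 complexes. The summed level of the 84 members was 17150 and 17130 CPM in deleted E2, against 8925 and 8870 CPM in deleted oil. It was 15430 and 17290 CPM in control E2, against 8255 and 7973 CPM in control oil. Every E2 library was above every oil library, and the ratio of means was 1.93 in deleted stroma and 2.02 in control stroma. These transcripts made up 1.72% and 1.71% of the library in deleted E2, 0.892% and 0.887% in deleted oil, 1.54% and 1.73% in control E2 and 0.825% and 0.797% in control oil.

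The ratio lay in a narrow range over the complexes. Complex I summed to 5502 ± 53.0 CPM in deleted E2 and 2928 ± 0.707 CPM in deleted oil (mean ± SD, n = 2 libraries, as for all means), and to 5276 ± 342 CPM in control E2 and 2648 ± 101 CPM in control oil. The ratio of E2 to oil was 1.88 in deleted and 1.99 in control stroma for complex I, 1.77 and 1.8 for complex II, 1.82 and 1.89 for complex III, 1.99 and 2.01 for complex IV, and 2.0 and 2.14 for complex V, each pair in that order of genotypes. In no complex did an oil library reach the lowest E2 library.

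**Figure D1:**
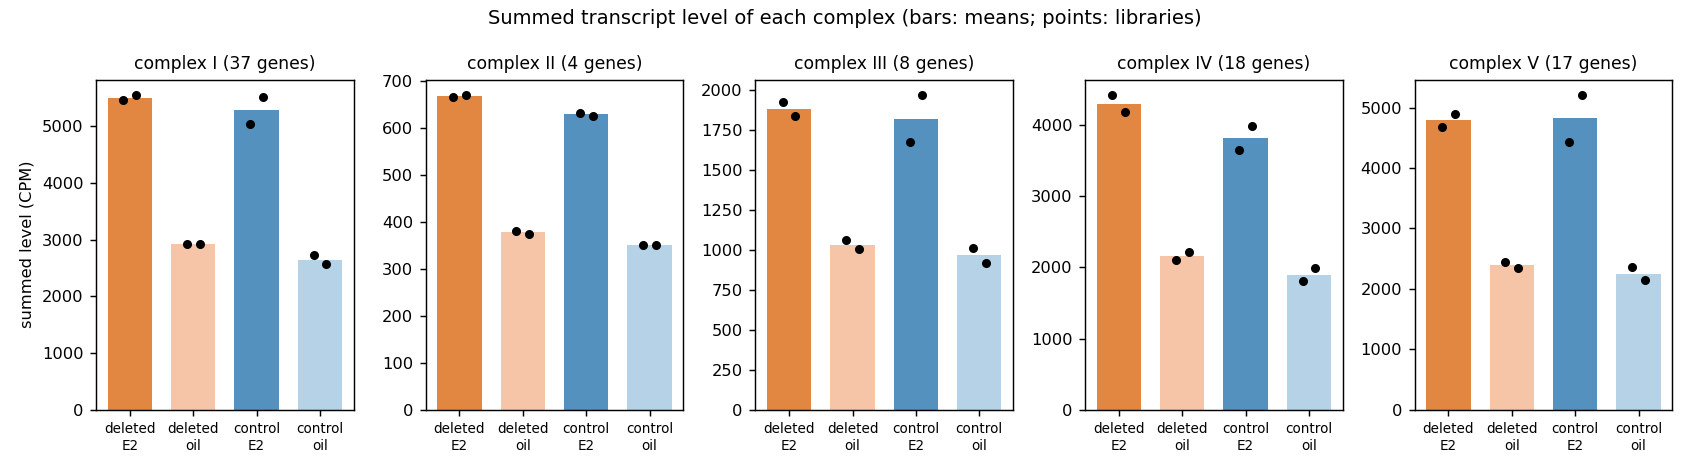
Summed level (CPM) of the members of each complex, with bars for group means and points for the 2 libraries of a group, in the order deleted E2, deleted oil, control E2, control oil. In all 5 panels the 4 E2 libraries lie above the 4 oil libraries.

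Of 79 tested members, 62 rose with E2 in deleted stroma and none fell (edgeR's quasi-likelihood test, adjusted p below 0.05 over 13347 genes). Of all tested genes, 24.3% passed in that comparison (13.1% higher and 11.2% lower). In control stroma 66 members rose and 1, Cox7a2l, fell, where 29.8% of all genes passed (15.8% higher and 14.0% lower). The median log2 fold change of the members was 0.94 in deleted and 1.05 in control stroma, against 0.02 and 0.01 for all tested genes. A rise in both genotypes was found for 61 members (10.9% of all genes rose in both), and 32 of them rose at least 2-fold in both. No member fell in both (9.29% of all genes did). Whatever the test, 74 of 79 members were above 0 in deleted stroma (50.6% of all genes) and 76 in control stroma (50.3%), and 68 had an unadjusted p below 0.05 in each (39.1% and 42.7% of all genes). All 4 E2 libraries were above all 4 oil libraries for 68 members, where 24.3% of all genes had that order. With 1 library left out, the deleted count was 27 without E2 library 1, 30 without E2 library 2, 34 without oil library 1 and 39 without oil library 2. The control count of 67 calls became 44 without control E2 library 2.

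**Figure D2:**
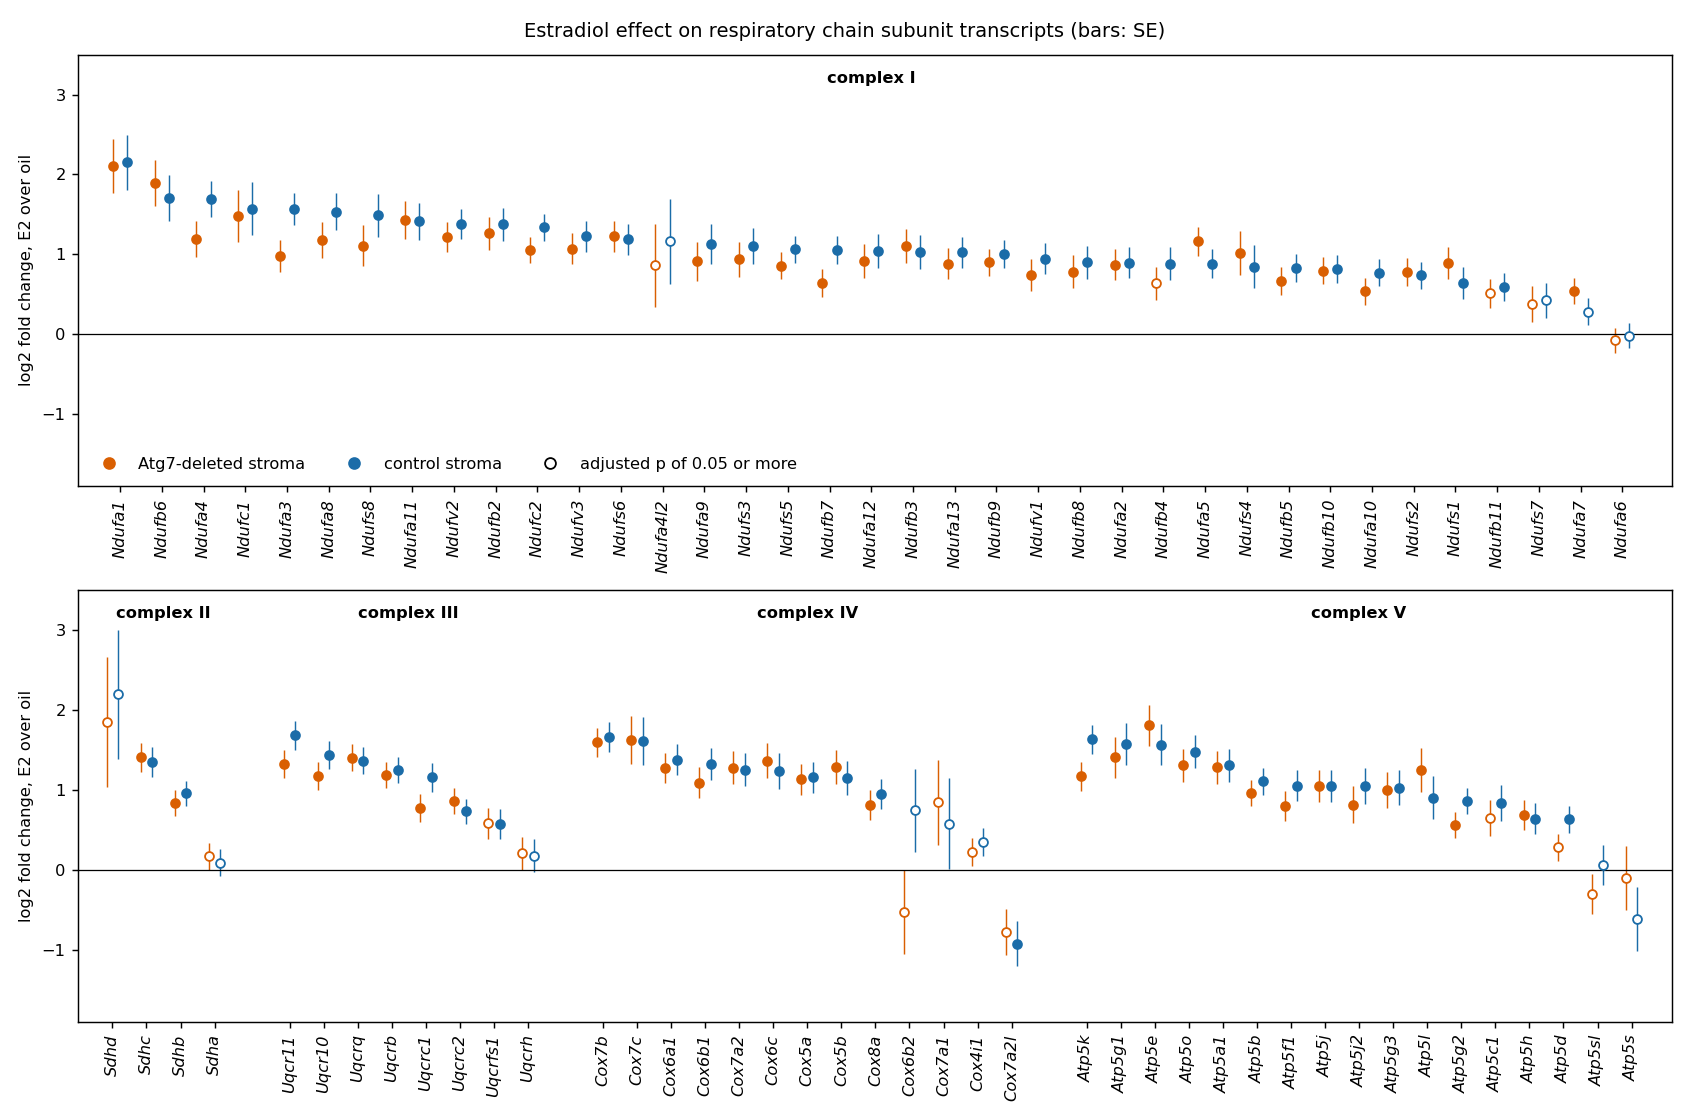
Log2 fold change, E2 over oil, of each tested member, with its standard error, in Atg7-deleted (orange, left) and control stroma (blue, right), grouped by complex. Open circles have an adjusted p of 0.05 or more. Most members lie near the median of 0.94 in deleted and 1.05 in control stroma, and Cox7a2l lies below 0 in both.

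Promoters of a few members are shown because most members rose together. Those chosen are the 3 genes of ATP synthase subunit c, which encode the same mature protein, Ndufa1 with the largest rise of complex I, and Ndufa6 and Cox7a2l, which did not rise. Each stretch is the 120 bases before the start site in RefSeq (build GRCm38.p6), printed 5′ to 3′ on the gene's strand, which is minus for all 6. Capitals mark CCAAT, the NRF1 motif GCATGCGC or the motif of the estrogen-related receptors (ERR), TCAAGGTCA, on either strand, and overlapping matches run together.
Atp5g1 at chr11:96075632-96075751: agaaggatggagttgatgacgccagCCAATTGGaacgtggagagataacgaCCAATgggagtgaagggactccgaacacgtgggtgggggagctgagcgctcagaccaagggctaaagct
Atp5g2 at chr15:102671048-102671167: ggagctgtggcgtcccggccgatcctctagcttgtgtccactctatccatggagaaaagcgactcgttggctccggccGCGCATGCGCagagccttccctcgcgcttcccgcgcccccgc
Atp5g3 at chr2:73911327-73911446: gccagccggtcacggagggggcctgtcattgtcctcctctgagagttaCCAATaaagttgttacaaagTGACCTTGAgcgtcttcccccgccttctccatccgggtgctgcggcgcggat
Ndufa1 at chrX:37191239-37191358: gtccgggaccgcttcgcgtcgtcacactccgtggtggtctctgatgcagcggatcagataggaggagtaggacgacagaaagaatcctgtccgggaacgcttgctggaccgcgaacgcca
Ndufa6 at chr15:82354292-82354411: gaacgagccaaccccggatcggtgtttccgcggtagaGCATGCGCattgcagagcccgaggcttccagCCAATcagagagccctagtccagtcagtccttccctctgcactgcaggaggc
Cox7a2l at chr17:83514334-83514453: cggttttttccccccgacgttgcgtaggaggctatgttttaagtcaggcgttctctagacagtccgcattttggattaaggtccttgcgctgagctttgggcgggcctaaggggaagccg

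The 3 subunit c stretches held CCAAT boxes at Atp5g1, overlapping NRF1 matches on both strands at Atp5g2, and an ERR motif with a CCAAT box at Atp5g3. Ndufa6, which did not rise, held an NRF1 match and a CCAAT box, and the stretches of Ndufa1 and Cox7a2l held none of the 3. RefSeq windows of 250 bases before to 50 after the start were at hand for 66 members (71 windows) and were searched on both strands. GCATGCGC, a site of the nuclear respiratory factor NRF1, was in 14.1% of member windows, 4.86% of windows of tested genes and 2.71% of all windows. CCGGAAG, a site of GABPA and other ETS factors, was in 22.5%, 16.1% and 8.86%, and TCAAGGTCA in 2.82% (Atp5g3 and Sdhd), 0.279% and 0.423%, in the same order. CCAAT was in 42.3%, 37.2% and 37.4%. GCATGCGC was in 17.3% of 52 windows of members that rose in both genotypes. It was in 14.3% of the 7 windows of members that passed in neither. In that order CCGGAAG was in 26.9% and 28.6%, TCAAGGTCA in 1.92% and 14.3%, and CCAAT in 38.5% and 71.4%. No difference in motifs was tested. The full estrogen response element GGTCANNNTGACC was in no member window, in 0.00776% of windows of tested genes and in 0.0700% of all windows. These are matches of letters in a window, not sites bound by a factor.

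Complex I rose broadly, in its catalytic core as in its accessory subunits. Of the 7 nuclear core subunits, which hold the flavin and the iron-sulfur clusters or the quinone site, 6 rose in deleted and 6 in control stroma, with medians of 0.89 and 0.95 on the log2 scale. Of the 30 accessory members, 26 rose in deleted and 27 in control stroma, with medians of 0.92 and 1.05. The core subunit that did not pass was Ndufs7, the holder of the last cluster before ubiquinone. Its level was 35.4 and 48.2 CPM in deleted E2, 30.7 and 33.7 CPM in deleted oil, 42.3 and 53.5 CPM in control E2 and 37.9 and 33.5 CPM in control oil. Within each genotype both E2 libraries of Ndufs7 were above both oil libraries, and only across genotypes did the treatments overlap. Its log2 fold change was 0.38 ± 0.22 (SE, as for all fold changes) in deleted and 0.42 ± 0.22 in control stroma.

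Ndufa1, a small membrane subunit that assembly of complex I needs (chromosome X, 37187588 to 37191163, minus strand, mm10 coordinates from GENCODE M21 here and below), had the largest rise of complex I. Its level was 548 and 411 CPM in deleted E2, against 96.6 and 126 CPM in deleted oil, and 416.5 and 384 CPM in control E2, against 56.8 and 124 CPM in control oil. The lowest E2 library of Ndufa1 was more than 3 times its highest oil library. The fold change was 4.30 in deleted stroma (log2 2.11 ± 0.34, adjusted p = 0.00398) and 4.44 in control stroma (log2 2.15 ± 0.34, adjusted p = 0.00293), and log2 2.78 without control oil library 2. Ndufb6, an accessory subunit of the membrane arm, rose by 1.90 ± 0.29 in deleted stroma (adjusted p = 0.00338) and 1.71 ± 0.29 in control stroma (adjusted p = 0.00383). Ndufc1, a small accessory subunit, rose by 1.49 ± 0.32 and 1.57 ± 0.33. The deleted call of Ndufc1 ended without E2 library 1, E2 library 2 or oil library 1 (adjusted p = 0.0547 to 0.0913), the control call ended without E2 library 1 (adjusted p = 0.0521), and its control value was 2.18 without oil library 2.

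Ndufa6, an accessory subunit of the LYR family that sits with the acyl carrier protein at the matrix arm (chromosome 15, 82350140 to 82354322, minus strand), did not follow the other members. Its level was 287 and 286.5 CPM in deleted E2, 305 and 299 CPM in deleted oil, 263 and 263 CPM in control E2 and 282 and 251 CPM in control oil. All 8 libraries of Ndufa6 lay within 251 to 305 CPM. The treatments overlapped in control stroma, and in deleted stroma both E2 libraries of Ndufa6 were below both oil libraries. Its log2 fold change was -0.07 ± 0.16 in deleted and -0.02 ± 0.16 in control stroma, against complex medians of 0.91 and 1.05. The sign of the control value turned with library totals as the scale, to 0.05.

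Ndufa4 and Ndufa4l2 encode paralogs, of which the second is known as a target of hypoxia signalling. Ndufa4 had 130 and 121 CPM in deleted E2, against 48.4 and 61.3 CPM in deleted oil, and 193 and 145 CPM in control E2, against 44.8 and 59.7 CPM in control oil. It rose by 1.19 ± 0.22 in deleted stroma (adjusted p = 0.00709; 0.0617 without E2 library 1 and 0.0568 without oil library 1) and by 1.69 ± 0.23 in control stroma (adjusted p = 0.00161). Ndufa4l2 was low, with 4.58 to 10.3 CPM in deleted and 1.89 to 12.0 CPM in control libraries, and its E2 and oil libraries overlapped. Its share of the reads of the pair averaged 6.04 ± 1.53% over 4 E2 libraries and 7.76 ± 2.51% over 4 oil libraries (SD; two-sided exact permutation test, p = 0.314). An exon of Shmt2 lies on the other strand at the end of Ndufa4l2, and the strand used in counting is not stated. Without control oil library 2, Ndufa4l2 passed in control stroma (adjusted p = 0.014).

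**Figure D3:**
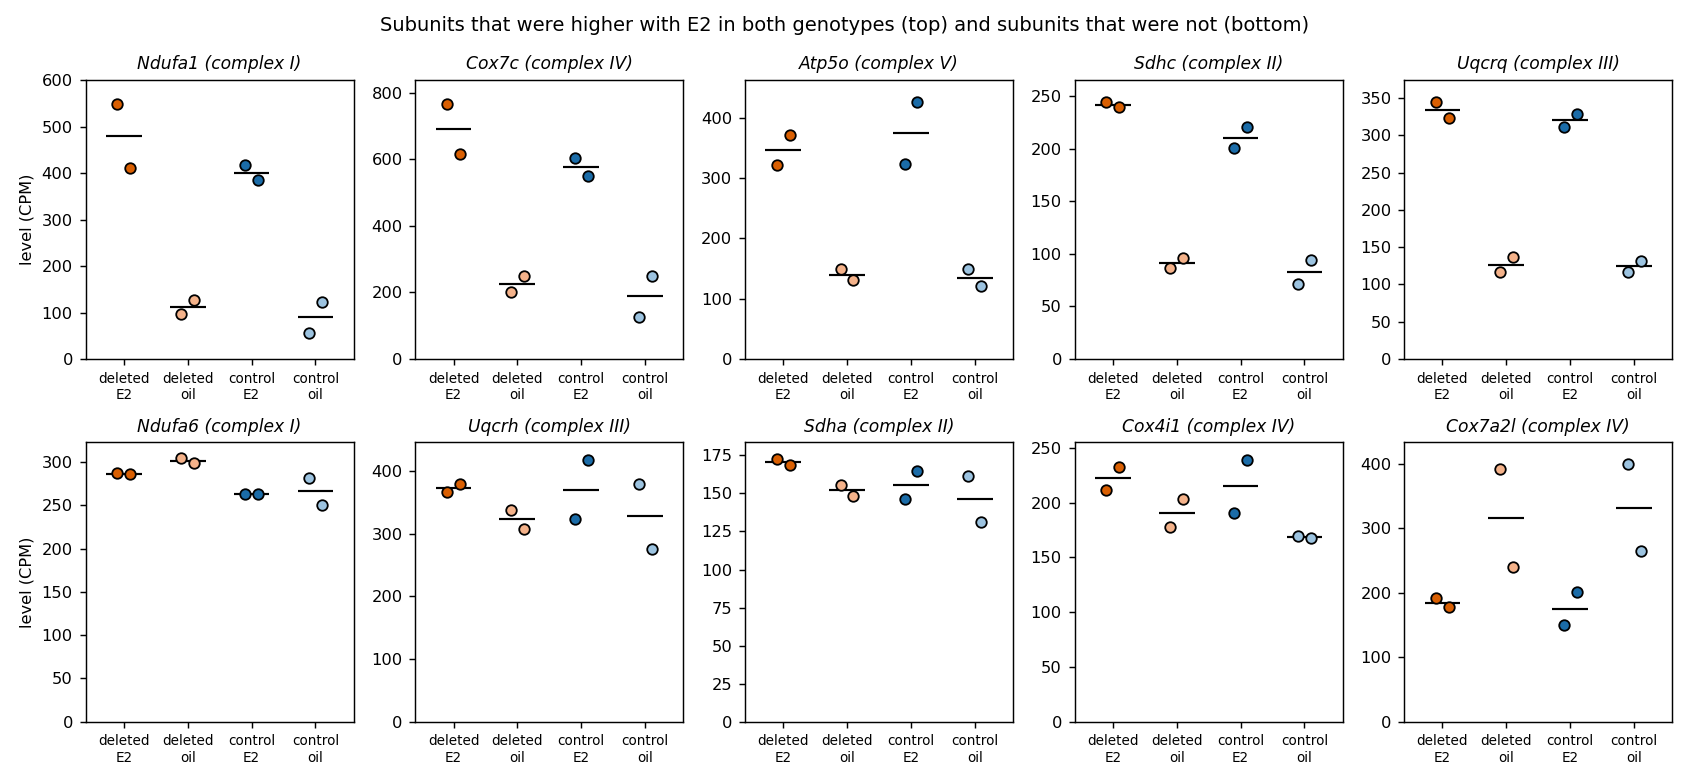
Level (CPM) of 10 members in each library, with lines for group means, in the order deleted E2, deleted oil, control E2, control oil. The upper row shows members of each complex that rose in both genotypes, with E2 points above all oil points. The lower row shows Ndufa6, Uqcrh, Sdha and Cox4i1, in which the treatments overlap. In the first 3 they overlap within control but not within deleted stroma, and in Cox4i1 only across genotypes. The lower row also shows Cox7a2l, in which E2 points lie below oil points.

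Complex II, succinate dehydrogenase, which also serves the citric acid cycle, divided by subunit. The anchor subunit Sdhc (chromosome 1, 171127165 to 171150603, minus strand) had 244 and 239 CPM in deleted E2, against 86.3 and 96.3 CPM in deleted oil, and 200.2 and 220.4 CPM in control E2, against 70.8 and 94.0 CPM in control oil. Sdhc rose 2.65-fold in deleted stroma (adjusted p = 0.00223) and 2.55-fold in control stroma (adjusted p = 0.00182), with no overlap. Sdhb, the iron-sulfur subunit, rose by 0.84 ± 0.16 in deleted stroma (adjusted p = 0.0075, and 0.0526 to 0.0634 without E2 library 1, E2 library 2 or oil library 2) and by 0.95 ± 0.16 in control stroma (adjusted p = 0.00364).

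Sdha, the flavoprotein that oxidizes succinate (chromosome 13, 74322254 to 74350280, minus strand), stood nearly level. It had 173 and 169 CPM in deleted E2, 156 and 148 CPM in deleted oil, 146 and 165 CPM in control E2 and 161.5 and 131 CPM in control oil. The treatments overlapped for Sdha in control stroma, and in deleted stroma both E2 libraries were above both oil libraries. Its log2 fold change was 0.17 ± 0.17 in deleted and 0.09 ± 0.17 in control stroma. Sdhd, the other anchor subunit, varied more between libraries than any other tested subunit of complex II. It had 34.7 and 28.5 CPM in deleted E2, 6.95 and 10.6 CPM in deleted oil, 76.6 and 20.6 CPM in control E2 and 2.21 and 19.3 CPM in control oil. All E2 libraries of Sdhd were above all oil libraries, but the control values 20.6 and 19.3 nearly met, and its log2 fold changes of 1.85 ± 0.82 and 2.19 ± 0.81 did not pass (adjusted p = 0.127 in deleted and 0.0685 in control stroma). The control value ran from 0.96 without E2 library 1 (adjusted p = 0.488) to 4.43 without oil library 2 (adjusted p = 0.00453). Without a filter on low counts both comparisons passed, at 0.0155 and 0.00348.

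In complex III, 6 of 8 members rose in deleted and 7 of 8 in control stroma. Of the 5 small subunits, 4 rose in both genotypes, with medians of 1.18 in deleted and 1.37 in control stroma. Of the 3 core and Rieske subunits, 2 rose in deleted and 3 in control stroma, with medians of 0.78 and 0.73. Uqcr11 (chromosome 10, 80402997 to 80406830, minus strand), the smallest subunit, had 230 and 195 CPM in deleted E2, against 91.2 and 79.3 CPM in deleted oil, and 183 and 207 CPM in control E2, against 60.3 and 61.3 CPM in control oil. Uqcr11 rose 2.5-fold in deleted stroma (adjusted p = 0.00221) and 3.21-fold in control stroma (adjusted p = 0.000786), with no overlap. Uqcrq, a small subunit named for ubiquinone binding, rose by 1.40 ± 0.17 and 1.37 ± 0.17, Uqcr10 by 1.17 ± 0.18 and 1.44 ± 0.18 and Uqcrb by 1.18 ± 0.16 and 1.25 ± 0.16, each in deleted and then control stroma.

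The small subunit that passed in neither genotype was Uqcrh, the acidic hinge protein that helps cytochrome c dock (chromosome 4, 116066965 to 116075071, minus strand). It had 366 and 379 CPM in deleted E2, 338 and 308 CPM in deleted oil, 323 and 417 CPM in control E2 and 380 and 275.5 CPM in control oil. The treatments overlapped in control stroma, and the log2 fold change was 0.21 ± 0.21 in deleted and 0.18 ± 0.21 in control stroma. The control value was -0.02 without E2 library 2 and -0.07 without oil library 2.

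In complex IV, cytochrome c oxidase, 9 of 10 widely expressed subunits rose in both genotypes, with medians of 1.28 in deleted and 1.24 in control stroma. Cox7b, a small membrane subunit, had 274 and 273 CPM in deleted E2, against 102 and 78.8 CPM in deleted oil, and 227 and 259 CPM in control E2, against 78.6 and 75.2 CPM in control oil. It rose 3.02-fold in deleted stroma (adjusted p = 0.00137) and 3.16-fold in control stroma (adjusted p = 0.000898). Cox6a1, which lies where the monomers of the enzyme meet, rose by 1.28 ± 0.19 and 1.38 ± 0.19, and Cox6c, a small membrane subunit, by 1.37 ± 0.22 and 1.23 ± 0.22. Cox4i1, the largest nuclear subunit, did not pass. It had 212 and 233 CPM in deleted E2, 177.5 and 203 CPM in deleted oil, 191 and 239 CPM in control E2 and 170 and 168 CPM in control oil. Within each genotype both E2 libraries of Cox4i1 were above both oil libraries. Across genotypes, its highest oil library (deleted, 203 CPM) was above its lowest E2 library (control, 191 CPM). Its log2 fold change was 0.22 ± 0.18 in deleted and 0.35 ± 0.18 in control stroma.

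Cox7c (chromosome 13, 86044816 to 86046904, minus strand), another small membrane subunit, shares a near-identical 3′ end with 4 annotated pseudogenes. It had 767 and 616 CPM in deleted E2, against 200.2 and 249 CPM in deleted oil, and 605.5 and 549 CPM in control E2, against 127 and 250.1 CPM in control oil. Cox7c rose 3.08-fold in deleted stroma (adjusted p = 0.00678; 0.0619 without E2 library 1 and 0.0530 without oil library 1) and 3.06-fold in control stroma (adjusted p = 0.00554). Of the joint reads of Cox7c and its copies, 57.0% were counted to copies, all to Gm12338, which rose by 1.52 ± 0.29 in deleted stroma (edgeR, adjusted p = 0.00706) and 1.51 ± 0.29 in control stroma (adjusted p = 0.00589), so the split of reads between the genes is uncertain.

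Cox7a2l (chromosome 17, 83501918 to 83517330, minus strand) was the member that went down. It had 192 and 178 CPM in deleted E2, against 392 and 241 CPM in deleted oil, and 150 and 200.5 CPM in control E2, against 400 and 264 CPM in control oil. Every E2 library of Cox7a2l was below every oil library (21.5% of all genes had that order), and in oil library 1 was the higher of the 2 in both genotypes. Its log2 fold change was -0.92 ± 0.28 in control stroma (adjusted p = 0.0378) and did not pass in deleted stroma at -0.78 ± 0.28 (adjusted p = 0.0762). The control call ended without either control E2 library, without control oil library 1 and without either deleted E2 library, with adjusted p from 0.0718 to 0.223, and with only the 2 groups compared (0.0655). The control value was -0.57 without control oil library 1. In deleted stroma the gene passed with DESeq2 (adjusted p = 0.045), with no filter (0.0295) and with only the 2 groups compared (0.0257). Without 1 library its deleted value ran from -1.08 to -0.38, and whether it passed depended on the library left out. The paralog that is a plain subunit, Cox7a2, rose by 1.28 ± 0.20 in deleted and 1.25 ± 0.20 in control stroma.

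Isoforms of complex IV known from muscle, lung or testis were low or absent. Cox8c had no read in any library, and Cox4i2, Cox6a2, Cox7b2 and Cox8b ranged from 0 to 3.31 CPM. Cox6b2 and Cox7a1 were tested and did not pass, at 1.59 to 9.93 CPM. Cox8b made up 0.0875% and 0.0285% of Cox8a and Cox8b reads in deleted E2, 0.500% and 0.910% in deleted oil, 0.182% and 0.164% in control E2 and 0.502% and 0.334% in control oil. All 4 E2 shares of Cox8b were below all 4 oil shares, on 1 to 7 reads in E2 and 6 to 21 in oil. Over the 9 isoform shares compared, the exact two-sided permutation test gave p = 0.0286 for Cox8b, the smallest that 4 against 4 libraries can give, and 0.129 after adjustment. With that floor, a share could pass after adjustment only if most of the 9 stood at it.

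In complex V, 13 of 17 members rose in deleted and 15 of 17 in control stroma. The F1 head and central stalk, where ATP is made, had 3 of 5 members up in deleted and 5 of 5 in control stroma. The peripheral stalk had 4 of 4 up in both genotypes, the c ring 3 of 3 and the small membrane subunits 3 of 3. Atp5e, subunit epsilon of the central stalk (chromosome 2, 174461072 to 174464105, minus strand), had 271 and 353 CPM in deleted E2, against 91.8 and 86.5 CPM in deleted oil, and 208 and 321 CPM in control E2, against 103 and 76.0 CPM in control oil. It rose 3.5-fold in deleted stroma (adjusted p = 0.0027) and 2.96-fold in control stroma (adjusted p = 0.00334), with no overlap. Atp5o, the stalk subunit that confers sensitivity to oligomycin, rose by 1.31 ± 0.20 and 1.48 ± 0.21, and Atp5k, a small membrane subunit, by 1.17 ± 0.18 and 1.64 ± 0.18. The catalytic subunit Atp5b rose by 0.96 ± 0.17 and 1.11 ± 0.17 and its partner Atp5a1 by 1.28 ± 0.21 and 1.31 ± 0.21, and the deleted call of Atp5b ended without E2 library 2 (adjusted p = 0.0510).

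The 3 genes of subunit c, whose ring turns as protons pass, all rose in both genotypes. Atp5g3 was the most abundant, with 1031 and 1024 CPM in deleted E2, against 579 and 449 CPM in deleted oil, and 997 and 1086 CPM in control E2, against 600.1 and 421.5 CPM in control oil. Atp5g1 had 194 and 180 CPM in deleted E2, against 86.0 and 55.0 CPM in deleted oil, and 192 and 194 CPM in control E2, against 78.1 and 51.5 CPM in control oil. No oil library reached an E2 library in either gene. Atp5g1 rose by 1.41 ± 0.26 in deleted stroma (adjusted p = 0.00657; 0.0570 without E2 library 1) and 1.57 ± 0.26 in control stroma, and Atp5g3 by 1.0 ± 0.22 and 1.03 ± 0.22. Atp5g2 rose by 0.56 ± 0.16 and 0.86 ± 0.16, and its deleted call ended with DESeq2 (adjusted p = 0.0631), with no filter on low counts (0.0571), without any 1 of the deleted libraries (0.0857 to 0.169) and without either control E2 library (0.0580 and 0.0587). The deleted call of Atp5g3 ended without either E2 library or oil library 2 (0.0728 to 0.0862), and its control call without E2 library 2 (0.0565).

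Of the reads of the subunit c trio, Atp5g1 took 14.4% and 13.6% in deleted E2, against 11.4% and 9.49% in deleted oil, and 14.6% and 13.8% in control E2, against 10.4% and 9.48% in control oil. The exact 95% binomial intervals, which cover counting error only, were 13.6% to 15.2% for the first of these and 10.6% to 12.4% for the highest oil share. Over both genotypes the share was 14.1 ± 0.469% in 4 E2 libraries and 10.2 ± 0.936% in 4 oil libraries, with no overlap (exact permutation test, p = 0.0286, adjusted 0.129). Atp5g2 had 9.16 ± 0.414% in E2 and 11.7 ± 1.71% in oil (p = 0.0571, adjusted 0.171), and Atp5g3 76.7 ± 0.812% in E2 and 78.1 ± 1.41% in oil (p = 0.143, adjusted 0.256), both by the same exact permutation test and with overlap. No share in the trio passed after adjustment, but none could have unless most of the isoform shares compared stood at the smallest possible p. The adjusted values therefore cannot decide whether the shares changed. Genes with a stretch near-identical to the end of Atp5g1 held 10.4% of the joint reads, nearly all of them counted to Pdzd2. Unlike Atp5g1, Pdzd2 fell with E2 in deleted stroma (-1.13 ± 0.29, edgeR, adjusted p = 0.0215). In control stroma it stood at -0.51 ± 0.28 and did not pass. How many of its reads come from Atp5g1 was not tested.

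Members that did not pass in either genotype numbered 11: Ndufa4l2, Ndufa6, Ndufs7, Sdha, Sdhd, Uqcrh, Cox4i1, Cox6b2, Cox7a1, Atp5s and Atp5sl. Atp5s had 3.38 to 6.55 CPM and Atp5sl 16.8 to 26.3 CPM over all libraries, and the treatments overlapped in both. Members that passed in control but not in deleted stroma were Ndufb4, Ndufb11, Uqcrfs1, Atp5c1 and Atp5d, all higher, and Cox7a2l, lower. Ndufa7 passed in deleted but not in control stroma. These 7 were chosen after their values were seen. For none of them was a difference in E2 effect between genotypes found by the interaction test, in which no gene passed.

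The 2 E2 effects rest on separate libraries and were close. Across the 79 members the fold changes in deleted and control stroma had a Pearson r of 0.889 (0.867 over all tested genes; genes are not independent replicates), and their median absolute difference was 0.15 on the log2 scale. For the interaction, deleted minus control E2 effect, the members' median was -0.11 and 26 of 79 were above 0 (48.9% of all genes). No member and no gene passed the interaction test in edgeR or in DESeq2. At an unadjusted p below 0.05 edgeR had 210 genes (1.57%) and no member.

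Between Atg7-deleted and control stroma, which also differ in Cre, no change was detected in any member. In oil, none of 79 passed (0% of all genes), and 2 members, Uqcr11 and Ndufv3, had an unadjusted p below 0.05 (2.54% of all genes). Uqcr11 stood at 0.49 ± 0.18 and Ndufv3, a small subunit of the flavoprotein part of complex I, at 0.48 ± 0.20 on the log2 scale. After E2 none passed (0% of all genes) and none had an unadjusted p below 0.05 (3.02% of all genes). Averaged over both treatments none passed either (0% of all genes), 64 of 79 were above 0 (47.6% of all genes) and 2 members had an unadjusted p below 0.05 (4.07% of all genes). DESeq2 passed no member in these 3 comparisons, and 3 genes in the average.

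The direction of the small differences leaned to higher levels in deleted stroma. In oil, 65 of 79 members were above 0 (48.5% of all genes), with a median of 0.17 against -0.01 for all genes. After E2, 51 of 79 were above 0 (47.9% of all genes), with a median of 0.07. The summed level was 1.1 times that of control in oil and 1.05 times after E2. Marker lists leaned in the same comparison: in oil 10 of 10 fibroblast markers were above 0 (median 0.37), 8 of 8 smooth muscle markers above 0 (median 0.43) and 10 of 10 epithelial markers below 0 (median -0.59), and their part was not tested. With 1 library left out the members' median ran from 0.10 to 0.23 in oil and from -0.02 to 0.19 after E2. The oil libraries enter both this comparison and the E2 effects.

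**Figure D4:**
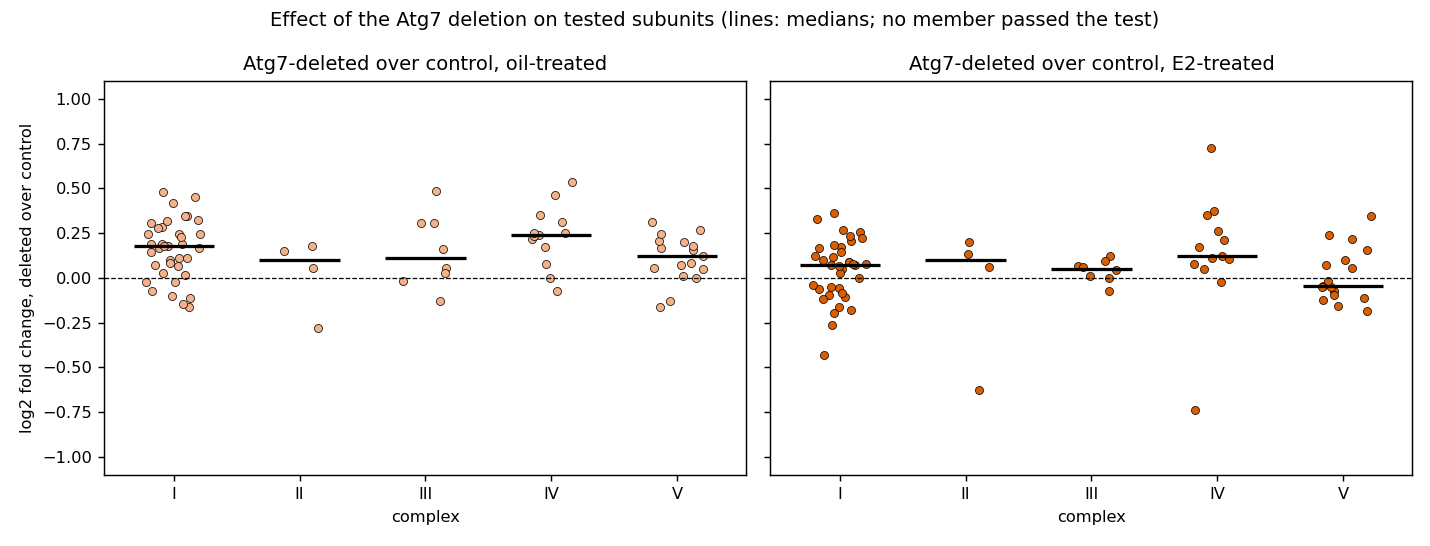
Log2 fold change, Atg7-deleted over control, of each tested member by complex, in oil-treated stroma (left) and after E2 (right). Short lines are medians and the dashed line is 0. In oil 65 of 79 points lie above 0 and after E2 51 of 79, and no point passed the test.

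Other genes of respiration and of the mitochondrion were counted in the same way, and no difference between lists was tested. The shares of all tested genes hold for each list from here on. They were 13.1% higher and 11.2% lower in deleted stroma, and 15.8% higher and 14.0% lower in control stroma. Of 5 respiratory genes outside the symbol rule, 5 rose in deleted and 4 in control stroma. They include Ndufab1, the acyl carrier protein of complex I, which had 21.6 and 19.1 CPM in deleted E2, against 5.37 and 3.94 CPM in deleted oil, and 17.2 and 18.9 CPM in control E2, against 3.63 and 5.84 CPM in control oil. Cyc1, cytochrome c1 of complex III, rose by 1.18 ± 0.19 and 1.13 ± 0.18, and Cycs, cytochrome c, by 1.0 ± 0.18 and 0.81 ± 0.18, in deleted and then control stroma. Assembly factors of complex I had 3 of 14 up in deleted and 6 of 14 in control stroma, with Ecsit at 1.43 ± 0.25 and 1.51 ± 0.25. Those of complexes II to V had 13 of 33 up in deleted and 14 of 33 in control stroma. Uqcc2, a factor for cytochrome b, had the smallest p of these in control stroma. It had 56.5 and 47.4 CPM in deleted E2, against 10.1 and 12.0 CPM in deleted oil, and 51.0 and 45.6 CPM in control E2, against 6.15 and 10.1 CPM in control oil. None of the assembly factors fell.

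The enzymes that feed the chain, of pyruvate dehydrogenase and the citric acid cycle, had 10 of 17 up in deleted and 11 of 17 in control stroma and none down. Citrate synthase, Cs, rose by 1.32 ± 0.17 and 1.51 ± 0.17, and fumarase, Fh1, by 1.28 ± 0.19 and 1.03 ± 0.19. Protein import had 12 of 23 up and 1 down in deleted, and 9 up and 1 down in control stroma. Timm13, a chaperone of the intermembrane space, rose by 1.49 ± 0.19 and 1.97 ± 0.19, whereas Timm22, the channel for carrier proteins, fell by 1.13 ± 0.20 and 1.29 ± 0.20. Carriers and porins had 5 of 13 up in each genotype, with the ATP and ADP carrier Slc25a4 at 1.45 ± 0.19 and 1.43 ± 0.19. The phosphate carrier Slc25a3 had 524 to 749 CPM in all libraries and did not pass. The 13 mitochondrially encoded subunits were not analysed here.

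Regulators of respiratory genes were too few to set their share of calls apart from that of all tested genes. Of 15 tested, 1 rose (6.67%) and 2 fell in each genotype. Among all tested genes, 13.1% rose and 11.2% fell in deleted stroma, and 15.8% rose and 14.0% fell in control stroma. Ppargc1a, the coactivator PGC-1α, had 9.72 and 7.28 CPM in deleted E2, against 60.9 and 29.9 CPM in deleted oil, and 7.96 and 10.1 CPM in control E2, against 47.3 and 20.4 CPM in control oil. It fell by 2.42 ± 0.47 in deleted stroma (adjusted p = 0.00768) and by 1.91 ± 0.46 in control stroma (adjusted p = 0.0148), with library 1 the higher of the oil libraries in both genotypes, as for the epithelial markers. Nrf1, which encodes the factor named with the motif above, fell by 0.92 ± 0.18 and 0.58 ± 0.18 (adjusted p = 0.00921 and 0.0407). Esrra, the estrogen-related receptor alpha, rose by 1.01 ± 0.26 and 0.78 ± 0.26 (adjusted p = 0.0214 and 0.0459). Tfam, Gabpa and Ppargc1b did not pass.

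Of 13 mitophagy and dynamics genes, 3 were up and 1 down in deleted, and 2 up and 4 down in control stroma, where of all tested genes 13.1% were up and 11.2% down in deleted and 15.8% up and 14.0% down in control stroma. Mfn2, a fusion protein of the outer membrane, rose by 1.07 ± 0.18 and 0.84 ± 0.18, and the mitophagy receptor Bcl2l13 fell by 0.82 ± 0.19 and 0.79 ± 0.19. Of 7 mitochondrial antioxidant genes, 2 rose in each genotype, with the peroxiredoxin Prdx3 at 1.24 ± 0.21 and 1.11 ± 0.21.

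**Figure D5:**
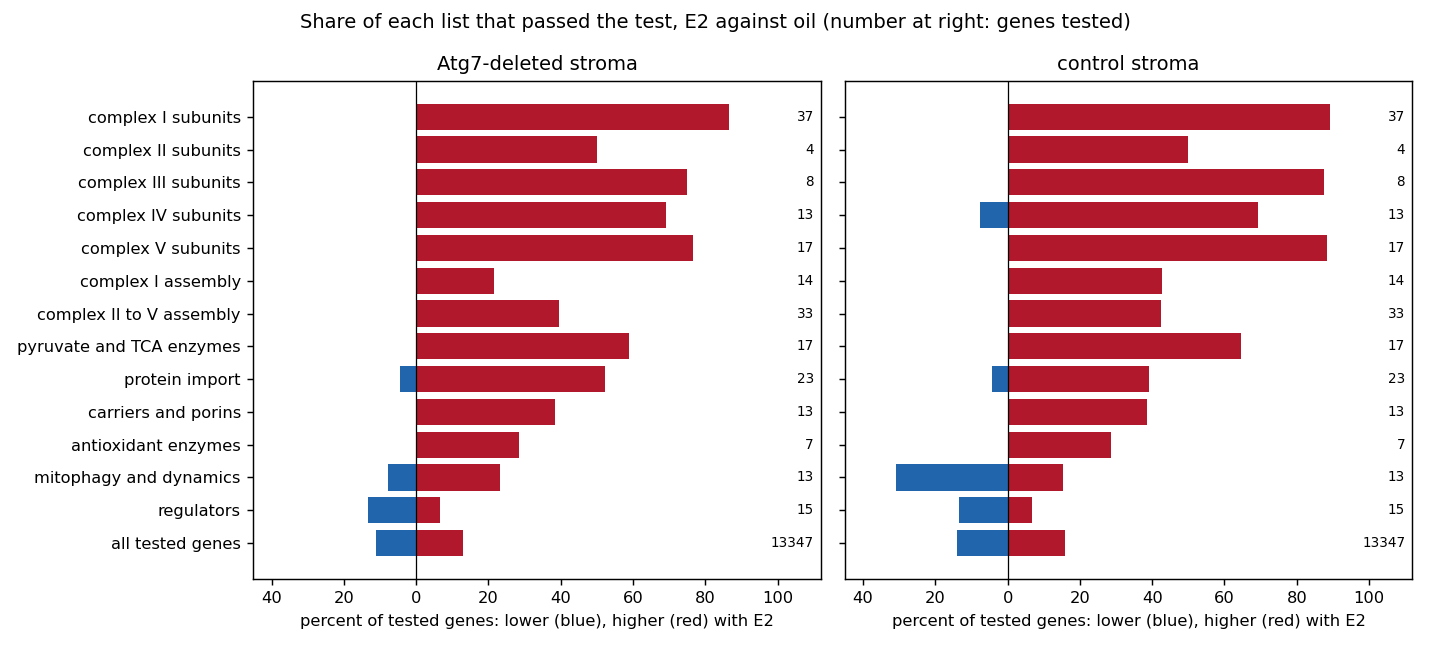
Share (percent) of the tested genes of each list that passed the test, to the right when higher with E2 and to the left when lower, in Atg7-deleted (left panel) and control stroma (right panel). Numbers give the genes tested. Complex I reached 86.5% higher in deleted and 89.2% in control stroma, against 13.1% and 15.8% of all tested genes.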

How the data were processed

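RNA of 8 libraries (500 ng of total RNA each, QuantSeq 3′ kit, per the labels) was counted per gene symbol. The authors deposited raw read counts, with no normalization. Bowtie2, edgeR and mm10 appear in the submitters' processing notes. For counter, annotation, strand setting and reads with several matches, the sources used here give nothing. Each table had 23282 lines. For 35 symbols on 79 lines the highest line was kept (0.0973% of counts left out, no member among them).

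Genes were filtered with filterByExpr (minimum count 10, minimum total 15), scaled by TMM and tested in edgeR 4.0.16 (R 4.3.3) with 1 mean per group and Benjamini-Hochberg adjustment at 0.05 over 13347 genes. The biological coefficient of variation was 21.8%, with residual degrees of freedom of 4 and prior ones of 5.08. Standard errors came from the fold change and its test statistic. The test was checked on simulated counts with 1 spread for all genes and 200 genes changed in 1 group. In these data far more genes passed and the spread differed between groups, so the check does not give their error rate. DESeq2 1.42.0 was an alternative. Replicates of every group differed by more than counting noise.

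Members, lists and alternatives were chosen with earlier results of these data known. Named were, per complex, the 3 highest, the 3 largest rises and falls that passed, members that passed in neither genotype and isoform partners, and up to 3 genes per other list with the smallest p in control stroma; any others were chosen after their values were seen. Near-identical copies were searched in GENCODE M21 transcripts (at least 95% identity over 100 of the last 300 bases), where 83 of 84 members had a name. Of these, 27 had a match, which can also be a gene that overlaps the same end, such as Braf at Ndufb2 or Smim27 at Ndufb6. For 4 (Cox7c, Ndufs5, Atp5g1 and Ndufb2) matching genes in the table held over 5% of joint reads. For Ndufs5, 62.9% of joint reads were counted to BC002163, and for Ndufb2, 30.8% to the antisense neighbour Braf, so these levels are uncertain.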

Additional observations from a re-analysis of the deposited data

Results flagged for a closer look

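For 4 of 79 members the libraries of deleted and control stroma did not overlap in either treatment and lay in opposite order, deleted above control in oil and below it after E2 (428 of 13347 genes, 3.21%, had opposite order of either kind). The interaction was -0.59 ± 0.28 (log2) for Ndufa3, -0.41 ± 0.24 for Ndufb7, -0.35 ± 0.24 for Atp5d and -0.30 ± 0.22 for Atp5g2. Ndufa3 had 81.9 and 95.4 CPM in deleted E2, against 99.0 and 101 CPM in control E2, and 46.5 and 43.5 CPM in deleted oil, against 38.6 and 28.7 CPM in control oil. None of the 4 passed the interaction test (edgeR, adjusted p = 1 for each; unadjusted p = 0.0602 for Ndufa3, 0.123 for Ndufb7, 0.171 for Atp5d and 0.218 for Atp5g2), so the difference between treatments was not shown. Reads of Ndufa3 may include those of Tfpt, whose exon lies on the other strand at its end. For no member did E2 and oil libraries lie apart in both genotypes and in opposite order (127 genes, 0.952%). By sign alone, Cox6b2 had a log2 fold change of -0.53 ± 0.53 in deleted and 0.74 ± 0.52 in control stroma. Atp5sl also differed in sign, and neither gene passed in either genotype.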

How the results depend on the processing

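With other scalings, no filter, DESeq2 or only the 2 groups compared, 60 to 67 members passed in deleted stroma (62 as reported) and 52 to 67 in control stroma (67 as reported). Leaving out 1 library at a time gave 27 to 68 and 44 to 64. Without both oil libraries numbered 1, an alternative added after seeing the data, 62 and 65 passed. Library totals as the scale moved the median of all genes by at most 0.07. Members passed in no deletion comparison or interaction under any alternative. The library numbers were not shown to pair the samples: deviations of same-numbered libraries correlated from -0.21 to 0.46 over all tested genes and from -0.71 to 0.55 over the members. With a replicate block 62 members passed in deleted and 66 in control stroma, and with crossed numbers, added after seeing the data, 68 and 68.

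Signs turned for members that did not pass, and the causes were not tested. In control stroma, fits without 1 library ran from -0.136 to 0.0957 for Ndufa6 (0.0957 without oil library 1, -0.136 without oil library 2), -0.289 to 0.361 for Atp5sl and -0.119 to 1.07 for Cox7a1 (each without E2 library 2 and without E2 library 1), and -0.0884 to 0.276 for Sdha (without oil library 2 and 1). Uqcrh ran from -0.0732 without oil library 2 to 0.451 without oil library 1, and was -0.0151 without E2 library 2. Ndufa6 was 0.0509 with library totals and 0.0471 without both oil libraries 1, and Atp5sl was -0.00825 without both. In deleted stroma Atp5s ran from -0.495 to 0.218 (without E2 library 1 and 2) and Cox6b2 from -1.09 to 0.417 (without oil library 1 and 2). Over such fits the share difference, E2 minus oil, ran from -0.522 to -0.33 percentage points for Cox8b, -3.32 to -2.1 for Atp5g2 and -1.68 to -0.756 for Cox6b2. With 2 libraries a group, small effects could not be seen.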
